A study of Rattus norvegicus with 24 samples.

Results

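The genes described here encode subunits of the sodium-potassium ATPase, the sodium pump, in the injured rat spinal cord: the beta subunits Atp1b1, Atp1b2 and Atp1b3, and Fxyd1 and Fxyd7 of the FXYD family of small regulatory subunits. They were chosen by name, as every ProbeSet of the array whose single gene symbol is one of these names, which gave 7 of the 20832 ProbeSets with 1 symbol and 5 of 14218 genes. Each of the 24 arrays holds RNA from the spinal cord of 1 rat. Injured rats were female Wistar rats whose vertebral arches T6 to T8 had been removed and whose cord had been squeezed at T7 for 1 min by a 35 g aneurysm clip, and the cord was taken at the injury epicenter on day 1, 3, 7, 14 or 56 post-injury (n = 4 rats a day). The sham rats (n = 4), also female Wistar rats, are described as laminectomized, and no source used here gives their sampling day. Different rats make up each day, and the methods describe a separate pre-processing of the arrays of each time, so pre-processing and day cannot be told apart. Day 7 rats 2 and 3 and day 14 rat 3 correlated least with the other arrays of their groups (mean r 0.983, 0.983 and 0.985).

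The sodium pump exports sodium and imports potassium at the cost of ATP, and so keeps the gradients on which action potentials, glutamate uptake and cell volume depend. A catalytic alpha subunit carries out the transport. The beta subunit is needed for the alpha subunit to fold and reach the membrane, and an FXYD protein tunes how strongly the pump binds its ions. Atp1b1 is found in most tissues and is abundant in neurons, Atp1b2 was first known as an adhesion molecule on glia and is found mainly on astrocytes, and Atp1b3 is widely expressed. Fxyd1, phospholemman, is best known from heart and skeletal muscle, and Fxyd7 is a largely neural member of its family.

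The genes lie on different chromosomes of the rat assembly GRCr8: Atp1b1 on chromosome 13, Atp1b2 on chromosome 10, Atp1b3 on chromosome 8, and Fxyd1 and Fxyd7 side by side on chromosome 1. RefSeq start regions were matched for 3 of the 5 genes, Atp1b2, Atp1b3 and Fxyd1, and the 250 bases before the start are shown for these. Atp1b2 and Fxyd1 fell after the injury while Atp1b3 did not, but Atp1b1 and Fxyd7, which also fell, have no window here. The part of these sequences in the changes was not tested. All 3 windows are on the minus strand and run 5′ to 3′: chr10:54823709-54823958 for Atp1b2, chr8:105821152-105821401 for Atp1b3 and chr1:95418581-95418830 for Fxyd1. Capitals mark matches, on either strand, to 4 motifs: the TATA box, searched as TATAAA, the GC box, searched as GGGCGG, the box named CCAAT after its letters, and the AP-1 motif, searched as TGANTCA.
Atp1b2: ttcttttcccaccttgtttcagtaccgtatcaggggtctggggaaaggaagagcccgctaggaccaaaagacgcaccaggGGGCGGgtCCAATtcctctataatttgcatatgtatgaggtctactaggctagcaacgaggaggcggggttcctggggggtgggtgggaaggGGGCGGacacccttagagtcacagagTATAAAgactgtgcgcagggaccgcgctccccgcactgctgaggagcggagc
Atp1b3: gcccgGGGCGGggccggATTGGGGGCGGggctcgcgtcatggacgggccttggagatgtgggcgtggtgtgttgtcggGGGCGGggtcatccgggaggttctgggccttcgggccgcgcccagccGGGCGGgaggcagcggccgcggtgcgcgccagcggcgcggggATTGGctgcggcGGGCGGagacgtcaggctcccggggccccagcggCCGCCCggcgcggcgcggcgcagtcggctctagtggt
Fxyd1: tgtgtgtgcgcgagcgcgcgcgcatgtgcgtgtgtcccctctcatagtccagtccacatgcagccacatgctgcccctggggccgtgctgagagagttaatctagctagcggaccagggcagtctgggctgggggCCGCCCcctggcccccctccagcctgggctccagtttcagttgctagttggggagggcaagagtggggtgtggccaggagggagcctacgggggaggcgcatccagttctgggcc

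The Atp1b2 window held 1 TATA box, 2 GC boxes and 1 CCAAT box, none overlapping another, and 58.0% of its bases were G or C. The Atp1b3 window held 6 GC boxes and 2 CCAAT boxes, with 79.6% G or C, and the Fxyd1 window held 1 GC box, with 66.8% G or C. None of the 3 windows held the AP-1 motif. Among all 33469 RefSeq windows of this length, 12.9% held the TATA box, 30.5% the GC box, 34.0% the CCAAT box and 6.34% the AP-1 motif, and the median share of G or C was 51.2%. A match is a stretch of letters, not a measured binding site.

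After the injury the 5 genes followed different courses. Atp1b1 and Fxyd7 fell on day 1 and were below sham on every later day, Atp1b2 and Fxyd1 fell on days 1 and 3 and did not pass the test against sham afterwards, and Atp1b3 passed only on day 7, when it was slightly higher. The test was limma on the deposited log2 values of all arrays in 6 groups, with p values adjusted within each comparison (Benjamini-Hochberg, threshold 0.05). On day 1, 6 of the 7 ProbeSets were lower, when 20.3% of all ProbeSets were lower and 24.8% higher, and on day 3 again 6 were lower, when 16.7% of all were lower and 20.1% higher. On day 7, 3 were lower and 1 was higher, when 31.1% of all were lower and 20.1% higher. On day 14, 3 were lower, when 15.8% of all were lower and 13.4% higher, and on day 56 again 3 were lower, when 15.4% of all were lower and 13.9% higher. The median log2 fold change of the 7 ProbeSets was -1.72 on day 1, -1.12 on day 3, -0.78 on day 7, -0.64 on day 14 and -0.50 on day 56, when the median over all ProbeSets lay between -0.05 and 0.03. The 4 injured values lay wholly below the 4 sham values for 6 ProbeSets on day 1, 6 on day 3, 4 on day 7, 3 on day 14 and 4 on day 56, where the same held for 18.8%, 17.2%, 37.6%, 15.9% and 17% of all ProbeSets. They lay wholly above sham for 1 member, Fxyd1 on day 56, as for 15.9% of all ProbeSets. The share of members that were lower stood nearest to that of all ProbeSets on day 7. Without the 3 arrays that stand apart, 4 of 7 members were called on day 7, 3 on day 14 and 4 on day 56. All 5 comparisons use the same 4 sham arrays.

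**Figure D1:**
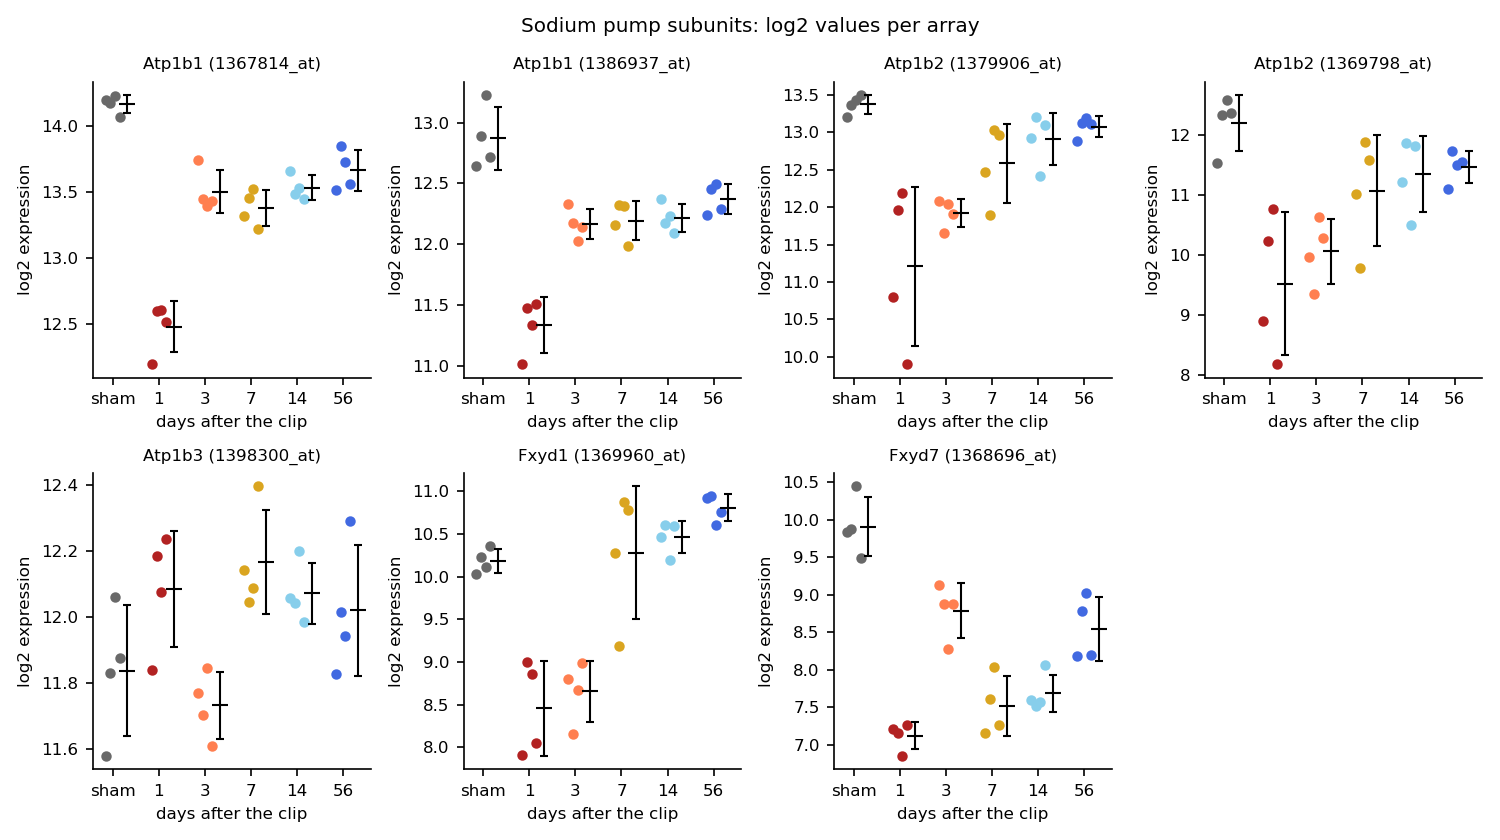
Log2 expression of the 7 ProbeSets on the 24 arrays, by group (sham, then days 1, 3, 7, 14 and 56 after the clip). Each point is 1 rat and the bar beside the points is the mean ± SD of 4 arrays; the axes do not start at 0. Atp1b1 and Fxyd7 stay below sham on every day, and Atp1b3 moves within 1 log2 unit.

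Atp1b1, the beta subunit that partners the pump in most cells, had values of 12.19, 12.60, 12.61 and 12.51 on day 1, against 14.20, 14.18, 14.23 and 14.07 in sham (ProbeSet 1367814_at, log2 expression). The groups did not overlap, and the mean fell by 1.69 on the log2 scale (SE 0.10, adjusted p = 3.4e-10), to 31.0% of the sham level. The 4 values were 13.74, 13.45, 13.39 and 13.43 on day 3, 13.32, 13.45, 13.53 and 13.22 on day 7, 13.66, 13.48, 13.53 and 13.45 on day 14, and 13.52, 13.85, 13.73 and 13.56 on day 56. Every one of these arrays lay below every sham array and above every day 1 array. Against sham the log2 fold change was -0.66 on day 3, -0.79 on day 7, -0.64 on day 14 and -0.50 on day 56 (SE 0.10 each, adjusted p between 4.4e-06 and 0.000564), so that Atp1b1 was at 70.5% of the sham level on the last day. Day 3 was higher than day 1 by 1.02 (SE 0.10, adjusted p = 3.94e-07). In the order of the group means, sham was above day 56 (adjusted p = 0.000564) and day 7 was above day 1 (adjusted p = 9.25e-06), while the neighbours day 56 and 14, day 14 and 3, and day 3 and 7 did not differ by the test (adjusted p between 0.438 and 0.824).

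The other Atp1b1 ProbeSet, 1386937_at, changed by -1.54, -0.70, -0.68, -0.65 and -0.50 (log2, against sham) from the first day to the last (SE 0.12 each). All 5 passed the test, with adjusted p of 0.00374 or less, and its 4 injured values lay below its 4 sham values on each day.

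Fxyd7, the neural FXYD subunit, had the lowest log2 fold change of the 5 genes on day 1, a change that separated it from Atp1b1 and Atp1b3 but not from Atp1b2 and Fxyd1 in the pairwise tests given further on. Its values were 7.21, 7.15, 6.86 and 7.26 on day 1, against 9.83, 9.87, 10.44 and 9.48 in sham, a fall of 2.79 on the log2 scale (SE 0.24, adjusted p = 2.43e-08) to 14.5% of the sham level. On day 3 the 4 values were 9.13, 8.87, 8.27 and 8.87, which lay above all day 1 values and below all sham values (log2 fold change against sham -1.12, SE 0.24, adjusted p = 0.000958). On day 7 they were 7.16, 7.61, 8.04 and 7.26, below all day 3 values, and on day 14 they were 7.59, 7.52, 7.57 and 8.06. On day 56 they were 8.18, 8.79, 9.02 and 8.20, still below every sham value. Against sham the log2 fold change was -2.39 on day 7, -2.22 on day 14 and -1.36 on day 56 (SE 0.24 each, with adjusted p = 4e-07, 1.63e-06 and 0.000214).

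The day 3 value of Fxyd7 was tested against its neighbours in time. It was higher than on day 1 by 1.67 (SE 0.24, adjusted p = 3.37e-05), and day 7 was lower than day 3 by 1.27 (log2 fold change -1.27, SE 0.24, adjusted p = 0.000463), so the level was low on day 1, higher on day 3 and low again on day 7. Day 56 was higher than day 7 by 1.03 (adjusted p = 0.0146). Day 56 lay above day 14 by 0.86, and the groups did not overlap, but this did not pass in limma after adjustment over all ProbeSets (adjusted p = 0.21).

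Atp1b1 and Fxyd7 were measured in bulk tissue, where fewer cells of a type and less RNA per cell cannot be told apart. From a list of 12 neuron markers (among them Rbfox3, Snap25 and Syt1), 12 of 12 were lower on day 1, 3 on day 3, 12 on day 7, 12 on day 14 and 11 on day 56, when 20.4%, 16.7%, 30%, 16.3% and 15.9% of all genes were lower. On day 3, when most of the list did not pass, Atp1b1 and Fxyd7 were both lower. The median log2 fold change of the list was -2.91, -0.93, -2.52, -2.40 and -1.97 on days 1, 3, 7, 14 and 56, when the median over all genes lay between -0.05 and 0.03. Its summed level (log2 of the sum of linear values) ranged over 12.31 to 13.85 on day 1, against 16.44 to 16.77 in sham, over 15.30 to 15.95 on day 3, 13.24 to 15.66 on day 7, 12.74 to 14.97 on day 14 and 13.92 to 15.33 on day 56. The neuron list, like Fxyd7, was thus nearer to sham on day 3 than on days 1 and 7. Atp1b1 was higher on day 3 than on day 1, but its day 7 level did not differ from that of day 3 in limma (log2 fold change -0.12, adjusted p = 0.438). The part of the neuron list in the results for Atp1b1 and Fxyd7 was not tested. None of the 3 defining markers was at the level of the control ProbeSets (array means 2.62 to 2.91) in any group: the group means of Rbfox3 lay between 6.86 and 10.93, those of Snap25 between 10.43 and 14.31 and those of Syt1 between 4.95 and 6.74.

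**Figure D2:**
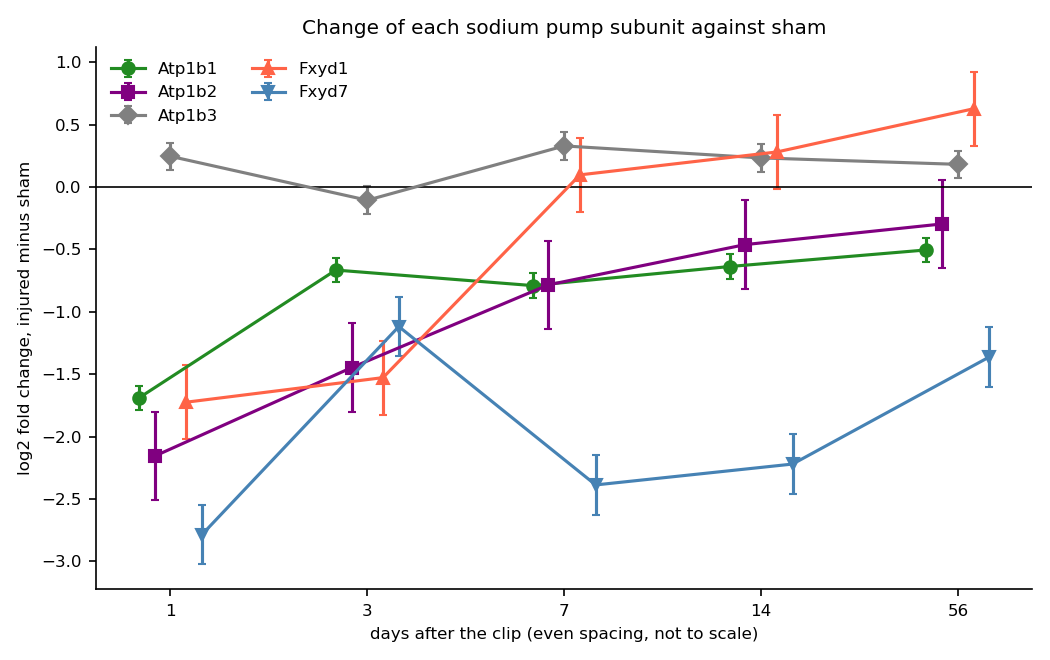
Log2 fold change of each gene against sham (y axis) on days 1, 3, 7, 14 and 56 (x axis, evenly spaced), as mean ± SE from limma, each gene by its ProbeSet with the highest mean. Fxyd7 is at -2.79, -1.12 and -2.39 on days 1, 3 and 7, Fxyd1 crosses 0 after day 3, and Atp1b3 lies between -0.11 and 0.33.

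Atp1b2, the beta subunit of astrocytes, had values of 10.80, 11.96, 12.18 and 9.90 on day 1, against 13.20, 13.36, 13.42 and 13.49 in sham (ProbeSet 1379906_at). The groups did not overlap, and rats 1 and 4 of day 1 were far below rats 2 and 3. The mean fell by 2.16 on the log2 scale (SE 0.35, adjusted p = 3.98e-05), to 22.4% of the sham level. On day 3 the values were 12.08, 11.66, 12.04 and 11.90, all below sham (log2 fold change -1.45, SE 0.35, adjusted p = 0.00297). They were 12.46, 11.89, 13.03 and 12.96 on day 7, 12.91, 13.21, 12.42 and 13.09 on day 14, and 12.87, 13.12, 13.18 and 13.11 on day 56. Against sham the log2 fold changes were -0.78, -0.46 and -0.30 (SE 0.35 each), which did not pass the test (adjusted p = 0.0687, 0.371 and 0.634). The 95% interval of the day 56 difference ran from -1.04 to 0.45, so a fall of the size seen for Atp1b1 is within it. All day 7 and day 56 values of this ProbeSet nevertheless lay below all sham values, and in a fit of the 2 groups alone both days passed (adjusted p = 0.0492 and 0.0411).

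The other Atp1b2 ProbeSet, 1369798_at, gave larger values: the log2 fold change against sham was -2.69 on day 1 (SE 0.51, adjusted p = 0.000175) and -2.14 on day 3 (adjusted p = 0.00226). Its changes of -1.14, -0.85 and -0.74 on days 7, 14 and 56 did not pass (adjusted p = 0.0659, 0.244 and 0.343). Its values overlapped those of sham on these days. Unlike the first ProbeSet, it passed on neither day 7 nor day 56 in the fit of the 2 groups alone. Between neighbours in the order of the Atp1b2 levels, which ran from day 1 up through days 3, 7, 14 and 56 to sham, no step passed the test (adjusted p between 0.117 and 0.881), while day 56 was higher than day 1 by 1.86 (SE 0.35, adjusted p = 0.000518).

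Fxyd1, phospholemman, had values of 7.91, 9.0, 8.86 and 8.05 on day 1, against 10.03, 10.22, 10.11 and 10.36 in sham. It fell by 1.72 on the log2 scale (SE 0.30, adjusted p = 6.74e-05), to 30.3% of the sham level, and again rats 1 and 4 were the lowest. The day 3 values of 8.80, 8.15, 8.68 and 8.99 also lay below all sham values (log2 fold change -1.53, SE 0.30, adjusted p = 0.000399). The day 7 values were 10.27, 9.18, 10.88 and 10.78, so that 3 of 4 rats were within or above the sham range and rat 2 was below it. Day 7 was higher than day 3 by 1.63 (SE 0.30, adjusted p = 0.000347), and all its arrays lay above those of day 3. Values were 10.46, 10.60, 10.19 and 10.59 on day 14 and 10.92, 10.95, 10.61 and 10.76 on day 56. Every day 56 value was above every sham value, with a log2 fold change of 0.63 (SE 0.30) that did not pass the test (adjusted p = 0.131, 95% interval 0.01 to 1.25), but passed in a fit of these 2 groups alone (adjusted p = 0.00281). It passed as well when 3 arrays that stand apart, day 7 rats 2 and 3 and day 14 rat 3, were left out (adjusted p = 0.0406). The level of Fxyd1 thus ran from day 1 and day 3, which did not differ by the test (adjusted p = 0.598), to sham and days 7, 14 and 56, of which no 2 neighbours in the order differed by the test (adjusted p between 0.587 and 0.796).

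**Figure D3:**
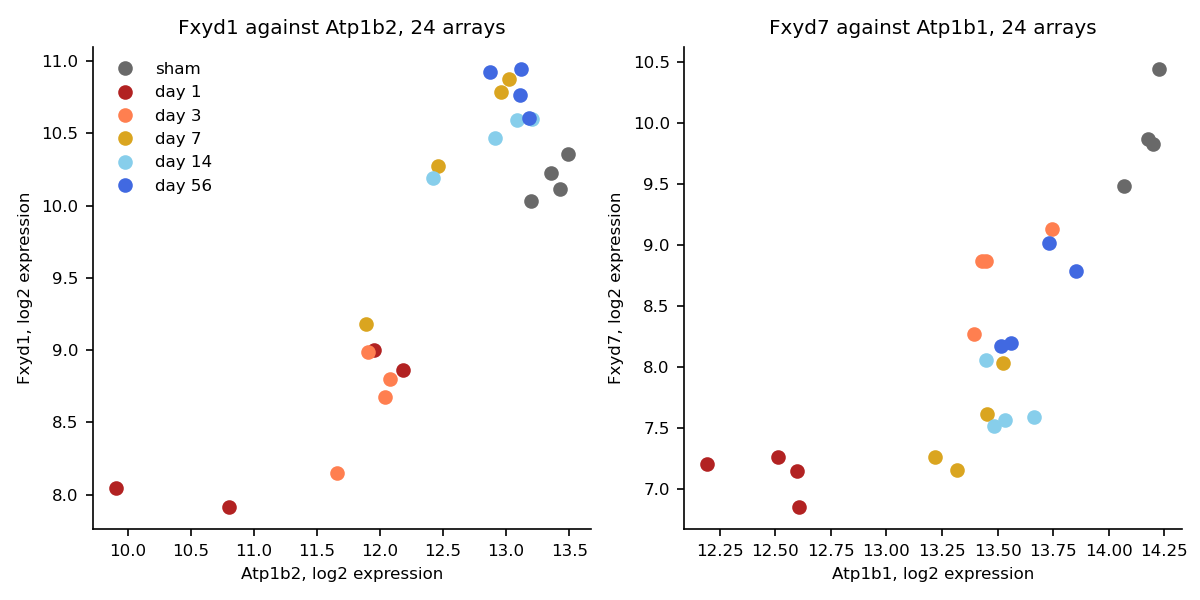
Fxyd1 against Atp1b2 (left) and Fxyd7 against Atp1b1 (right), log2 expression, 1 point per rat, coloured by group. The day 1 arrays with the lowest Atp1b2 values, 9.90 and 10.80, have Fxyd1 at 8.05 and 7.91, and the day 14 and day 56 arrays lie left of sham for Atp1b1 with Fxyd7 at 7.52 to 9.02.

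Atp1b2 and Fxyd1 varied together among rats of the same group. Over the 24 arrays, the deviations of the genes from their group means had a correlation of 0.779, the highest of the 10 gene pairs, against 0.484 for Atp1b1 and Fxyd7 and between -0.133 and 0.22 for the other pairs. Rats 1 and 4 of day 1, rat 2 of day 7 and rat 3 of day 14 were the lowest of their groups for both genes, with only the order of the day 1 pair exchanged. Sham rat 1 (13.20 and 10.03) and day 3 rat 2 (11.66 and 8.15) were also the lowest for both. On day 56 the lowest array was rat 1 for Atp1b2 and rat 3 for Fxyd1. The arrays of days 1, 7 and 14 just named were also the lowest of their groups in the summed level of 12 astrocyte markers, at 15.41 and 15.31 against 16.05 and 16.03 in the other day 1 rats, 15.90 on day 7 and 16.28 on day 14. Sham rat 1 (16.71) and day 3 rat 2 (16.08) were the lowest in this sum as well. This was not particular to astrocytes. The named arrays of days 1, 7 and 14 were the lowest for the neuron list, at 12.91 and 12.31 on day 1, 13.24 on day 7 and 12.74 on day 14. In sham and on day 3, however, the lowest neuron sums were those of rat 4 (16.44) and rat 3 (15.30). For 11 oligodendrocyte markers the named arrays of days 1, 7 and 14 were the lowest too, at 16.41 and 16.27, 16.61 and 16.71. So were sham rat 1, at 17.319 just under rat 2 at 17.323, and day 3 rat 2, at 16.86. Deviations are a description and arrays of a group share their treatment, so no p is given.

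Of the 12 astrocyte markers (among them Gfap, Aqp4 and Aldh1l1), 10 were lower on day 1, 7 on day 3, 7 on day 7, 3 on day 14 and 2 on day 56, when 20.4%, 16.7%, 30%, 16.3% and 15.9% of all genes were lower. The day 56 count was near the share of all genes. The median log2 fold changes of the list were -2.09, -1.02, -1.01, -0.43 and -0.17. The summed level ranged over 15.31 to 16.05 on day 1, against 16.71 to 17.04 in sham, over 16.08 to 16.20 on day 3, 15.90 to 16.77 on day 7, 16.28 to 16.86 on day 14 and 16.89 to 16.96 on day 56. The summed level lay below the sham range on days 1 and 3, on which Atp1b2 and Fxyd1 were lower, and within it on day 56. As many astrocyte markers were lower on day 7 as on day 3, but on day 7 Fxyd1 had a log2 fold change of 0.10 (adjusted p = 0.796) and Atp1b2 did not pass. The part of astrocyte markers in the results for these genes was not tested. Gfap, the intermediate filament of astrocytes, changed least of the defining markers, with -0.56 on day 1 (adjusted p = 0.00219), when Aqp4, the water channel of astrocyte endfeet, changed by -2.41 (adjusted p = 1.16e-05) and Aldh1l1, a folate enzyme, by -2.67 (adjusted p = 7.02e-06). Of 11 oligodendrocyte markers, 10, 7, 4, 5 and 7 were lower on days 1, 3, 7, 14 and 56, beside the same shares of all genes lower. The day 7 count stood nearest to the share of all genes. Of 11 markers of microglia and macrophages, 9, 6, 10, 10 and 8 were higher on days 1, 3, 7, 14 and 56, when 28.9%, 23.7%, 23.5%, 15.8% and 16.1% of all genes were higher. On days 1 and 3, 1 and 3 of these markers were lower.

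**Figure D4:**
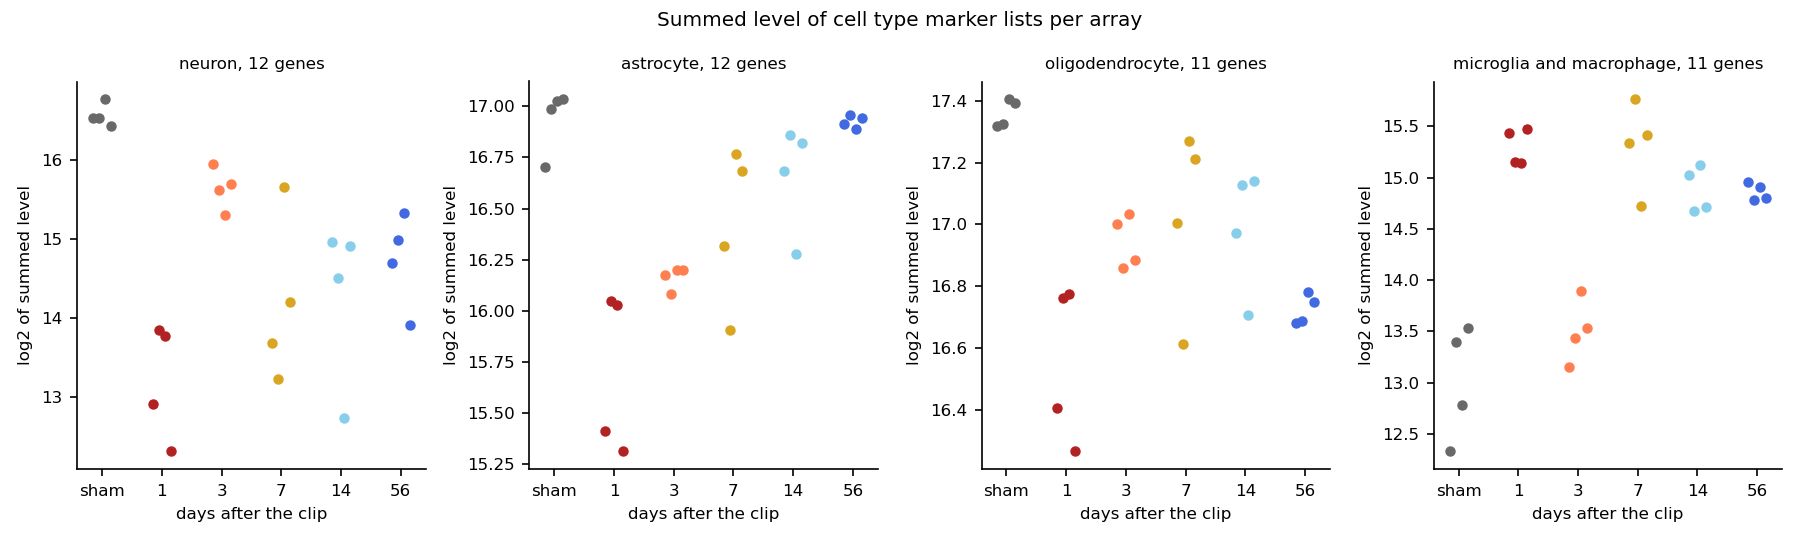
Summed level of 4 marker lists per array (y axis, log2 of the sum of linear values; scales differ and do not start at 0) in sham and on days 1, 3, 7, 14 and 56. Neuron markers lie at 15.30 to 15.95 on day 3, above all day 1 arrays, and astrocyte markers climb from day 1 to within the sham range on day 56.

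Atp1b3, the widely expressed beta subunit, was not lower than sham by the test on any day. It had values of 11.84, 12.19, 12.07 and 12.24 on day 1, against 11.58, 11.83, 12.06 and 11.88 in sham, and the groups overlapped (log2 fold change 0.25, SE 0.11, adjusted p = 0.0785). The values were 11.77, 11.70, 11.85 and 11.61 on day 3, 12.14, 12.04, 12.09 and 12.40 on day 7, 12.06, 12.04, 12.20 and 11.98 on day 14, and 11.83, 12.02, 11.94 and 12.29 on day 56, each group within or overlapping the sham range. On day 7 it was higher by 0.33 (SE 0.11, adjusted p = 0.0219). This call was lost without sham rat 1 (0.24, adjusted p = 0.093), without day 7 rat 4 (0.25, adjusted p = 0.0764) and in the fit of these 2 groups alone (adjusted p = 0.0638). The changes on days 3, 14 and 56 were -0.11, 0.23 and 0.18 (adjusted p = 0.431, 0.13 and 0.263). The day 3 level was lower than that of day 1 by 0.35 (log2 fold change -0.35, SE 0.11, adjusted p = 0.0195), and day 7 was higher than day 3 by 0.44 (SE 0.11, adjusted p = 0.00552). The step between days 1 and 3 did not pass without day 1 rat 4 (adjusted p = 0.0689), without day 3 rat 4 (adjusted p = 0.0505) or after median centring (adjusted p = 0.0509). In the order of its group means, day 7, day 1, day 14, day 56, sham and day 3, no 2 neighbours differed by the test (adjusted p between 0.263 and 0.938).

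Steps between consecutive days were compared over the 7 ProbeSets. Between day 3 and day 1, 3 were higher and 1 was lower, when 15.7% of all ProbeSets were higher and 16.2% lower. Between day 7 and day 3, 2 were higher and 1 was lower, when 11.4% were higher and 15.2% lower. Between day 14 and day 7, limma called 0 of the 7 (0 at an unadjusted p under 0.05, and 0 without moderation), when 24.2% of all ProbeSets were higher and 5.07% lower. Between day 56 and day 14 it called 0 of the 7 (1 at an unadjusted p under 0.05, Fxyd7, and 0 without moderation), when 0.187% were higher and 0.115% lower. Between day 56 and day 1, 6 of the 7 were higher, all but Atp1b3, when 10.5% of all were higher and 17.7% lower.

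Whether the genes changed unequally was tested on the difference of 2 genes within each array, first gene minus second, which was compared between the 4 injured and the 4 sham arrays by an exact two-sided permutation test. The 10 pairs on 5 days gave 50 tests, in which the smallest possible p is 0.0286 and its adjusted value 0.0421. In all, 34 of 50 reached it: 5 of 10 pairs on day 1, 6 on day 3, 7 on day 7, 8 on day 14 and 8 on day 56. Atp1b3 separated from Atp1b1, Atp1b2 and Fxyd7 on every day. Its change exceeded that of Fxyd7 by 3.03 on day 1, 1.01 on day 3, 2.72 on day 7, 2.45 on day 14 and 1.54 on day 56.

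Fxyd7 fell further than Atp1b1 by 1.10 on day 1, 1.60 on day 7, 1.58 on day 14 and 0.86 on day 56 (exact permutation p = 0.0286, adjusted p = 0.0421 each), but on day 3 the difference of 0.45 did not pass (exact permutation p = 0.0857, adjusted p = 0.113). Between the 2 FXYD genes, Fxyd1 minus Fxyd7 shifted by 1.06 on day 1 and -0.41 on day 3, neither of which passed (exact permutation, adjusted p = 0.113 and 0.313), and by 2.49, 2.50 and 1.99 on days 7, 14 and 56, all of which did (exact permutation, adjusted p = 0.0421).

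Atp1b2 and Fxyd1, which both fell on days 1 and 3, did not separate on these days, with shifts of -0.43 and 0.08 (exact permutation, adjusted p = 0.214 and 0.684). On days 7, 14 and 56, Atp1b2 was lower relative to Fxyd1 by shifts of -0.88, -0.74 and -0.92 (exact permutation, adjusted p = 0.0421 each). Of the beta subunits, Atp1b1 and Atp1b2 separated on day 3 alone, by 0.78 (exact permutation, adjusted p = 0.0421). On day 56 the shift was -0.21 (exact permutation, adjusted p = 0.113).

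The other genes of the sodium pump family are 14 measured genes of a list of 17, of which 6 reached a group mean of 5 (log2). On days 1, 3, 7, 14 and 56, 3, 2, 3, 3 and 3 of the 14 were higher and 3, 3, 5, 1 and 2 were lower, when 28.9%, 23.7%, 23.5%, 15.8% and 16.1% of all genes were higher and 20.4%, 16.7%, 30%, 16.3% and 15.9% lower. Among the 6 brighter genes, 3, 2, 3, 3 and 2 were higher and 2, 2, 1, 0 and 1 were lower. The median log2 fold change of the 14 genes lay between -0.06 and 0.03, where the median over all genes lay between -0.05 and 0.03.

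Fxyd5, dysadherin, an FXYD protein known from epithelia and tumours, rose on day 1, when its neighbours Fxyd7 and Fxyd1 on chromosome 1 fell. On day 1 it had values of 13.07, 12.41, 12.21 and 12.98, against 8.81, 9.74, 9.35 and 9.79 in sham (log2 fold change 3.24, SE 0.31, adjusted p = 8.07e-08). It was higher by 1.63, 2.37, 1.79 and 1.95 on days 3, 7, 14 and 56 (SE 0.31 each, adjusted p between 7.78e-06 and 0.000328). The annotation places Fxyd5, Fxyd7, Fxyd1, Lgi4 and Fxyd3 next to each other in this order. The summed level of the microglia and macrophage markers ranged over 15.15 to 15.48 on day 1, against 12.33 to 13.54 in sham, over 13.15 to 13.89 on day 3, 14.72 to 15.77 on day 7, 14.68 to 15.12 on day 14 and 14.79 to 14.96 on day 56, and its part in the result for Fxyd5 was not tested.

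Fxyd2, the gamma subunit of the kidney pump, had values of 8.07, 6.33, 6.22 and 7.40 on day 1, against 2.92, 2.41, 2.52 and 2.54 in sham, where it was at the control level. The log2 fold changes were 4.41, 0.94, 2.70, 2.79 and 4.24 on days 1, 3, 7, 14 and 56 (SE 0.61), and all but day 3 passed (adjusted p = 0.199 on day 3). Their size is not exact, since sham lies at the level of the control ProbeSets. Fxyd6, phosphohippolin, passed on day 3 alone, at -0.81 (SE 0.26, adjusted p = 0.0197). Fxyd3 was higher by 0.42 on day 56 (adjusted p = 0.00493) and Fxyd4 did not pass on any day, both near the control level.

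Among the NKAIN genes, whose products bind the beta1 subunit in mouse, Nkain1 was highest on day 3 and did not differ from sham by the test on day 56. Its values were 9.73, 9.67, 9.45 and 9.36 on day 1, against 5.26, 5.23, 4.89 and 5.35 in sham (ProbeSet 1375957_at, log2 fold change 4.37, SE 0.22, adjusted p = 4.61e-11). On day 3 they were 10.44, 11.39, 11.14 and 10.69, and the log2 fold change against sham was 5.73 on day 3, 1.89 on day 7, 1.09 on day 14 and 0.16 on day 56 (with adjusted p = 6.8e-13, 1.69e-06, 0.00067 and 0.667). Its other ProbeSet, 1393191_at, gave 4.80, 5.99, 1.78, 1.18 and -0.19 on the 5 days. Nkain4 went the other way, with values of 5.70, 7.90, 6.50 and 5.87 on day 1, against 8.57, 8.52, 8.67 and 9.15 in sham. It was lower by 2.23 on the log2 scale on day 1 and by 2.11 on day 3 (log2 fold changes -2.23 and -2.11, SE 0.36, adjusted p = 3.07e-05 and 0.0001) and did not pass later, at -0.46, -0.12 and 0.17. Nkain2 was lower on days 1, 7 and 56, by log2 fold changes of -0.85, -1.02 and -1.45, and Nkain3 was lower on every day by -1.21 to -1.76, with all injured group means near the control level. The Nkain3 signal was weak and uneven in sham as well, at 4.86, 4.54, 2.99 and 5.44, with rat 3 near the control level.

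Atp1a4, Atp1b4 and Atp12a, the catalytic subunit of sperm, a muscle gene of the beta family and the colonic proton pump, passed on day 7 with log2 fold changes of -0.12, -0.09 and -0.05, all at the control level, where no expression can be told. The gastric proton pump genes Atp4a and Atp4b did not pass on any day.

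**Figure D5:**
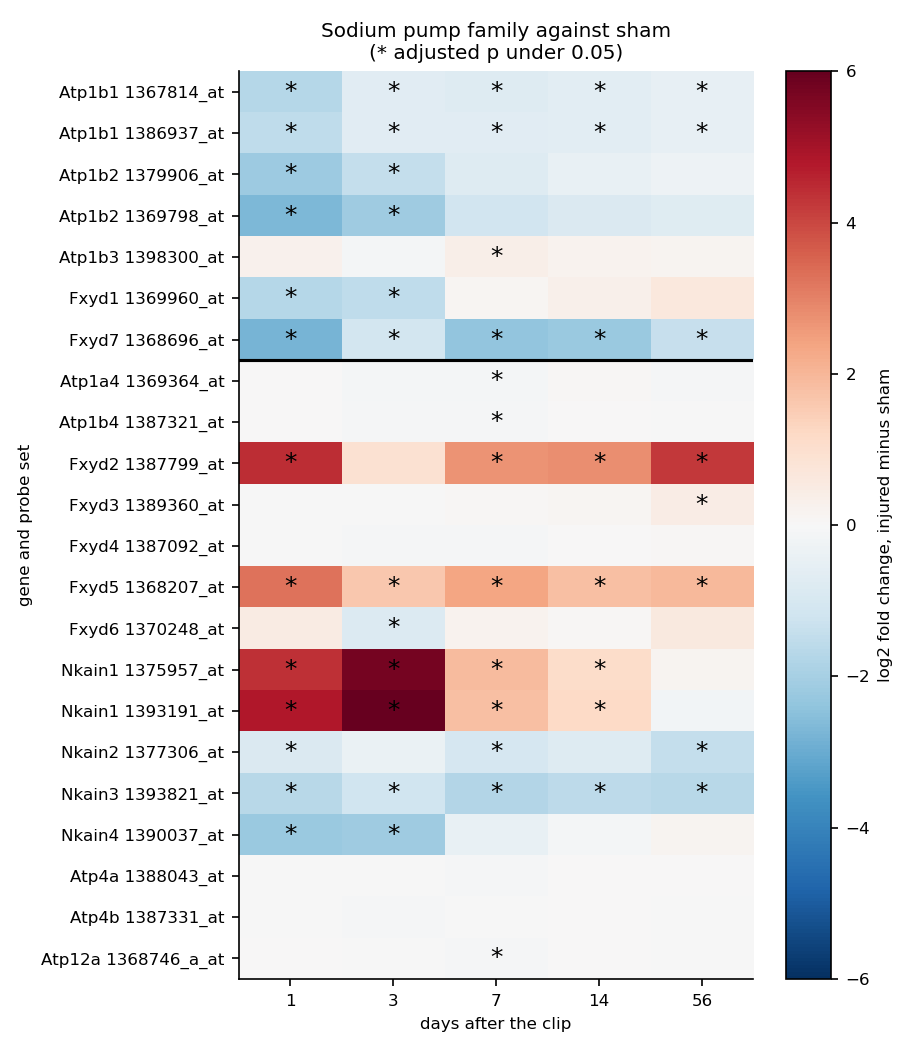
Log2 fold change against sham (colour) of the 7 ProbeSets (above the line) and of 15 ProbeSets of the other 14 family genes (below it) on days 1, 3, 7, 14 and 56; a star marks an adjusted p under 0.05 in limma. Nkain1, Fxyd2 and Fxyd5 are the genes with increases above 1, up to 5.99 for Nkain1 on day 3, and Nkain4 shows its decrease on days 1 and 3 alone.

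Pumps and carriers that work beside the sodium pump were counted from 2 lists. Of 9 genes for calcium pumps and their regulators, 1, 0, 1, 0 and 0 were higher and 4, 3, 5, 4 and 4 were lower on days 1, 3, 7, 14 and 56 in limma. Of all genes, 28.9%, 23.7%, 23.5%, 15.8% and 16.1% were higher and 20.4%, 16.7%, 30%, 16.3% and 15.9% lower. Among the 4 genes of the calcium list with a group mean of 5 or more, 3, 2, 3, 3 and 3 were lower. Atp2b2 and Atp2b3, plasma membrane calcium pumps of neurons, had log2 fold changes of -5.81 and -4.92 on day 1, while Atp2b1, the widely expressed isoform, was higher by 0.57 (adjusted p = 0.00873). The other list holds transporters that use the sodium gradient and, besides, Slc12a5, the neuronal potassium-chloride carrier, which carries no sodium. Without Slc12a5, left out after its values were seen, 2 of its 19 measured genes were higher on each day and 9, 12, 10, 8 and 7 were lower, beside the same shares of all genes higher and lower. Among the 11 of these with a group mean of 5 or more, 7, 8, 6, 6 and 5 were lower. With Slc12a5 (-5.26 on day 1), 10, 12, 11, 9 and 8 of 20 were lower. The largest decreases of the others on day 1 were those of Slc5a7, the choline transporter of cholinergic neurons (-5.33), and the potassium-dependent sodium-calcium exchangers Slc24a3 (-3.29) and Slc24a2 (-3.21).

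The genes whose pattern over the 24 arrays was most like that of each subunit were read from the Pearson correlation among 14218 genes, as a description. For Atp1b1 these were Scd2, a fatty acid desaturase (r = 0.933), Ero1b (0.93) and Hpcal4 (0.925). For Atp1b2 they were the adhesion molecule Ncam1 (0.973), Extl1 (0.965) and Igdcc4 (0.965), and for Fxyd1 they were Cst3, cystatin C (0.957), Nkain4 (0.954) and Nrbp2 (0.943). For Fxyd7 they were the calmodulin kinase kinase Camkk1 (0.947), Cds1 (0.945) and Hspa12a (0.939). Atp1b3, whose level varied least, had lower values, with Srgap2 at 0.846, Hsd17b11 at 0.832 and Hsd17b4 at 0.831. Arrays of a group share their day, so these values mostly compare time courses.

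The higher level of Fxyd7 on day 3 than on days 1 and 7 was also seen in the genes most like it, which were picked for this likeness. Camkk1 changed against sham by -3.17, -1.50, -2.35, -2.31 and -1.99 (log2) over days 1, 3, 7, 14 and 56, and Hspa12a by -3.82, -0.99, -2.73, -2.32 and -1.64. The genes most like Fxyd1 were close to sham from day 7 on, as with Nrbp2, which had -1.99, -1.47, -0.44, -0.16 and 0.31.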

How the data were processed

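Cord RNA of 24 rats was hybridised to Affymetrix whole-genome rat arrays, each array holding a single animal, in 6 groups of 4. The authors pre-processed the scans with affy 1.12.2 and GCRMA (named in the submitters' processing notes), and the values as deposited are on the log2 scale, 1 per ProbeSet. No normalization was added here. According to the methods, the arrays of a time point were pre-processed apart from the others, which can shift levels between days. Of 31099 ProbeSets, 20832 carry 1 symbol, 436 several and 9831 none. All were fitted with limma 3.58.1 (R 4.3.3; lmFit, contrasts, eBayes without trend; 18 residual degrees of freedom), and p values were adjusted over the ProbeSets with 1 symbol. A gene was represented by its ProbeSet with the highest mean over all arrays. Depth here is signal over background: 27 control ProbeSets without a target averaged 2.62 to 2.91 per array, and the number of arrays limits the precision. Pairwise correlations of arrays within a group lay between 0.973 and 0.996.

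The members and the lists were chosen with earlier results of these data known. Named genes are all members, every gene of the family list, up to 4 called genes of the other 2 lists with the largest change, the 3 genes most like each member and the first 3 markers of a cell type list. Within-array differences were tested with scipy 1.17.1. Promoter windows are from RefSeq (GRCr8), and windows for Atp1b1 and Fxyd7 were not used here. Alternatives were moderation with trend and robust, no moderation, a fit of the 2 groups compared, median centring, quantile normalization, a filter on a group mean of at least 5, the replicate number as a block, adjustment over all ProbeSets, the mean of a gene's ProbeSets and each array left out. The removal of 3 arrays together was chosen after seeing the data. The fit was tested on simulated data.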

Additional observations from a re-analysis of the deposited data

Results flagged for a closer look

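On 2 of 42 groups of 4 arrays, 1 rat stood apart from the others (gap to the nearest value over the range above Dixon's critical value, which chance gives in about 1 in 20 groups): Atp1b1 in day 3 rat 1, at 13.74 with a ratio of 0.844, and Fxyd7 in day 14 rat 4, at 8.06 with a ratio of 0.866. Both lay on the side of sham.

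The change from sham differed between days by the limma contrast of the days for the following genes. Atp1b1 was higher on day 3 than on day 1 by 1.02 and on day 56 than on day 1 by 1.19. Atp1b2 was higher on day 56 than on day 1 by 1.86, and Fxyd1 by 2.35. Fxyd1 was higher on day 7 than on day 3 by 1.63. Fxyd7 was higher on day 3 than on day 1 by 1.67 and on day 56 than on day 1 by 1.42, and day 7 was lower than day 3 (-1.27). Atp1b3 was lower on day 3 than on day 1 (-0.35) and higher on day 7 than on day 3 by 0.44.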

How the results depend on the processing

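The counts of called ProbeSets kept within 1.5 times their value under the alternatives run, with 1 exception: on day 56 against sham, the fit of the 2 groups alone called 5 ProbeSets in place of 3. Leaving out 1 array gave 6 to 7 calls on day 1, 6 on day 3, 3 to 5 on day 7, 3 on day 14 and 3 on day 56, 3 to 5 between days 3 and 1, 3 to 4 between days 7 and 3, and 6 between days 56 and 1. Without the 3 arrays together, 4 were called on day 7, 3 on day 14 and 4 on day 56.

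Differences that changed sign were not called before or after: Atp1b3 between days 14 and 7 (0.021) and days 56 and 1 (0.0022) with quantile normalization and between days 56 and 14 without day 56 rat 1 (0.0123, over arrays left out -0.14 to 0.0123), Fxyd1 between days 14 and 7 without day 7 rat 2 (-0.18, over arrays left out -0.18 to 0.38) and on day 7 without day 7 rats 3 or 4 (-0.10 and -0.07, over arrays left out -0.10 to 0.46), Atp1b1 minus Fxyd1 on day 1 with quantile normalization (-0.073), and, with the mean of the ProbeSets of a gene, Atp1b1 minus Atp1b2 on days 7, 14 and 56 (0.23, 0.0111 and 0.0133) and Atp1b2 minus Fxyd1 on day 3 (-0.27). Of the 50 within-array tests, 34 passed, 35 with quantile normalization and 32 with the mean of the ProbeSets, under which Atp1b2 minus Fxyd7 was lost on days 7 and 56 (adjusted p = 0.0793, exact permutation). Single calls gained were Atp1b3 on day 14 with quantile normalization (adjusted p = 0.028) and on day 1 without sham rat 3 or day 1 rat 1 (0.0272 and 0.0222), Atp1b2 between days 3 and 1 without day 1 rat 2 or 3 (0.0441 and 0.0259) and its ProbeSet 1369798_at on day 7 without day 7 rat 3 (0.0399). The cause was not tested.

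The numbers do not pair the rats: deviations of arrays with the same number had a mean correlation of -0.0316, and 3 of 24 arrays were closest to their own number. With the replicate number as a block, the calls on members against sham were unchanged at 6, 6, 4, 3 and 3 on days 1, 3, 7, 14 and 56, and array-wide calls between days 56 and 14 numbered 35 in place of 63. The precision is limited by 4 arrays a group.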
